A study of Mus musculus with 9 samples.

Results

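Neurotrophins are secreted growth factors of the nervous system, and the 6 genes described here encode 2 of them and 4 of the receptors they bind. The genes were chosen by name, with earlier results of these data known: Ngfr, Ntrk2, Ntrk3, Bdnf, Ntf3 and Sort1. Every probe set whose single gene symbol in the array annotation was one of these was taken, which gave 19 of the 30508 probe sets held, from 5 of 14440 genes. Ngfr had 3 probe sets, Ntrk2 had 4, Ntrk3 had 7, Bdnf had 2 and Sort1 had 3. No probe set was annotated to Ntf3, which was not analysed here.

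Total RNA from 5 mouse tumours and 4 skeletal muscles was measured on Affymetrix arrays, 1 array per sample. The tumours were excised from mice labelled MYF-5 CRE/SSM2, and the series presents them as an SYT-SSX synovial sarcoma model. By its name, MYF-5 CRE is a Cre recombinase driven from Myf5, a gene of muscle precursors, which limits the model to cells in which that driver was active; what SSM2 carries is not spelled out. The muscles are titled wild type. Tumours 4 and 5 carry the labels SSM5 and SSM4, and tumours 1, 2 and 3 carry CC23, CC17-B and CC17-A. The labels do not say what CC and SSM stand for or whether both CC17 tumours came from 1 animal. Muscles 1 and 4 came from hind limb, muscle 2 was intercostal and muscle 3 came from a forelimb. No age or strain was given, and since nothing says which muscles came from separate animals, the p-values measure only the spread between these samples, which may be technical.

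Neurotrophins are made as pro-forms and cut to mature factors. The mature factors bind receptor tyrosine kinases of the TRK family, which drive survival and growth of neurons, and all of them also bind p75, a receptor of the tumour necrosis factor receptor superfamily with a death domain and no kinase. The pro-forms bind p75 together with sortilin. In muscle and nerve, p75 is known from Schwann cells, neural crest derivatives and muscle precursors, and BDNF and TrkB from muscle fibres and the nerves that supply them.

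Levels below are MAS5 intensities after each array was scaled to a common trimmed mean. They are linear, and a level of one probe set cannot be set against that of another. The floor of an array, the 40th percentile of its scaled values, lay between 96.5 and 137, and a probe set was tested only where 4 or more arrays were at or above their floor. Log2 fold changes are tumour minus muscle on log2(intensity + 16), with the standard error (SE) or the 95% interval. Adjusted p-values are from limma with Benjamini-Hochberg adjustment over all 17433 probe sets tested, and a probe set was called at an adjusted p under 0.05.

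Ngfr was the 1 member gene with probe sets called between tumours and muscles. Of the 19 member probe sets, 10 passed the filter on low values and 9 did not. Both Ngfr probe sets that passed were called higher in tumours, where 25.7% of all probe sets tested were called higher. The call of one of them, 1450177_at, supports nothing, since it passed the filter only through the tumours, where it is high. No member was called lower, where the share over all probe sets was 16.5%. Either way, 2 of 10 were called, that probe set included, against 42.2% of all. The other 8 tested probe sets, of Ntrk2, Ntrk3, Bdnf and Sort1, were not called. At an unadjusted p under 0.05, limma gave 5 of the 10, against 50.4% of all probe sets tested. The median log2 fold change of the 10 was 0.18, and it was 0.18 over all probe sets tested. Tumour and muscle samples are mixtures of cells, so fewer cells of a type and less RNA per cell cannot be told apart in any value below.

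Ngfr encodes p75, the receptor shared by all neurotrophins. The bases just before its annotated start (RefSeq, GRCm38.p6, chr11:95587699-95587948, minus strand) are shown because Ngfr carries the difference between the groups, with those before the start of Ntrk2 (chr13:58806319-58806471, plus strand), whose tested probe sets were not called, beside it. Capitals mark the GC box GGGCGG read on either strand.

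Ngfr: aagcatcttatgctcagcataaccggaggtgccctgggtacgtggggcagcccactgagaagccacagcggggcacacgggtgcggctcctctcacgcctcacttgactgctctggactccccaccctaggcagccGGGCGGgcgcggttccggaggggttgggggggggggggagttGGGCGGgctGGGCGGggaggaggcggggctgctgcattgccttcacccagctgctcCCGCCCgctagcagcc

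Ntrk2: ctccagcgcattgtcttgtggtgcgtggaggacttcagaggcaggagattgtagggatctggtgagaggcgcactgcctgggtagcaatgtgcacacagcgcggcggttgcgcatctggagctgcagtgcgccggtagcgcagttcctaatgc

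The promoter table held entries for Ngfr, Ntrk2, Bdnf and Ntf3. Windows of Bdnf, whose tested probe set was not called, held 2, 1 or no GC boxes, and those of Ntf3 held 1 each. The Bdnf windows that held any lay inside the annotated gene. In the 250 bases before its start, Ngfr had 4 GC boxes and 16 CpG dinucleotides, and 70.4% of the bases were G or C, a higher share than in 91.2% of all promoter windows. The table's window for Ntrk2 ends inside the annotated gene, and only the 153 bases before the gene are printed; the whole window had no GC box, 19 CpG dinucleotides and 62.8% G or C, and the printed bases had 10 of those CpG dinucleotides. Of 32851 promoter windows, 32.7% held at least 1 GC box, and the median window had 6 CpG dinucleotides and 52.4% G or C. The E-box CANNTG, searched on both strands, occurred at 2 places in the window of Ngfr and at 1 in that of Ntrk2, and 66.2% of all windows held it. These matches describe the letters of the windows only.

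Ngfr probe set 1454903_at read 3073, 3450.5, 2042, 2451 and 2542 in tumours 1 to 5, against 154, 177, 64 and 152 in muscles 1 to 4. Every tumour lay far above every muscle. Muscle 3 was below the floor of its array, 97.0, and the other muscles were above theirs, so the size of the fold rests on low muscle values. The mean was 2712 ± 553 in tumours (SD, n = 5) and 137 ± 49.7 in muscles (SD, n = 4), which is a log2 fold change of 4.21 (SE 0.28, 95% interval 3.59 to 4.83) or 18.5-fold on the fitted scale, with an adjusted p of 4.1e-06 by limma. It ranked 65 from the top of the 17433 probe sets ordered by fold change. The exact permutation test over all 126 splits of the arrays gave a two-sided p of 0.00794, the smallest this design allows. Among the tumours, the log2 distance from the muscle mean ran from 3.83 in CC17-A to 4.58 in CC17-B, both of which share the number 17. The ratio of the 3' to the 5' Actb control probe set, a measure of RNA quality or labelling length, was higher in every tumour (1.99 to 12.7) than in any muscle (1.62 to 1.93). Its part in this and the other differences between tumours and muscles was not tested; without tumour 1, which had the highest ratio, the log2 fold change of Ngfr 1454903_at was 4.16.

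Probe set 1450177_at of Ngfr was dim. It read 57.6, 262, 243, 128 and 312 in tumours 1 to 5, and 21.1, 6.44, 16.8 and 8.81 in muscles 1 to 4. The groups did not overlap, but all muscles and tumour 1 were below the floor, so the probe set passed the filter only through the other 4 tumours. Its values are therefore a description with no test, and only a bound can be given: against the floor of the muscles the tumour mean was at least 1.67-fold higher. The remaining Ngfr probe set, 1421241_at, was below the floor on every array, at 5.41 to 26.1 in tumours and 4.97 to 15.2 in muscles, and gives no comparison. Over all probe sets tested, 21.7% had every tumour above every muscle and 14.5% had every tumour below; no tested member was of the second kind.

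**Figure D1:**
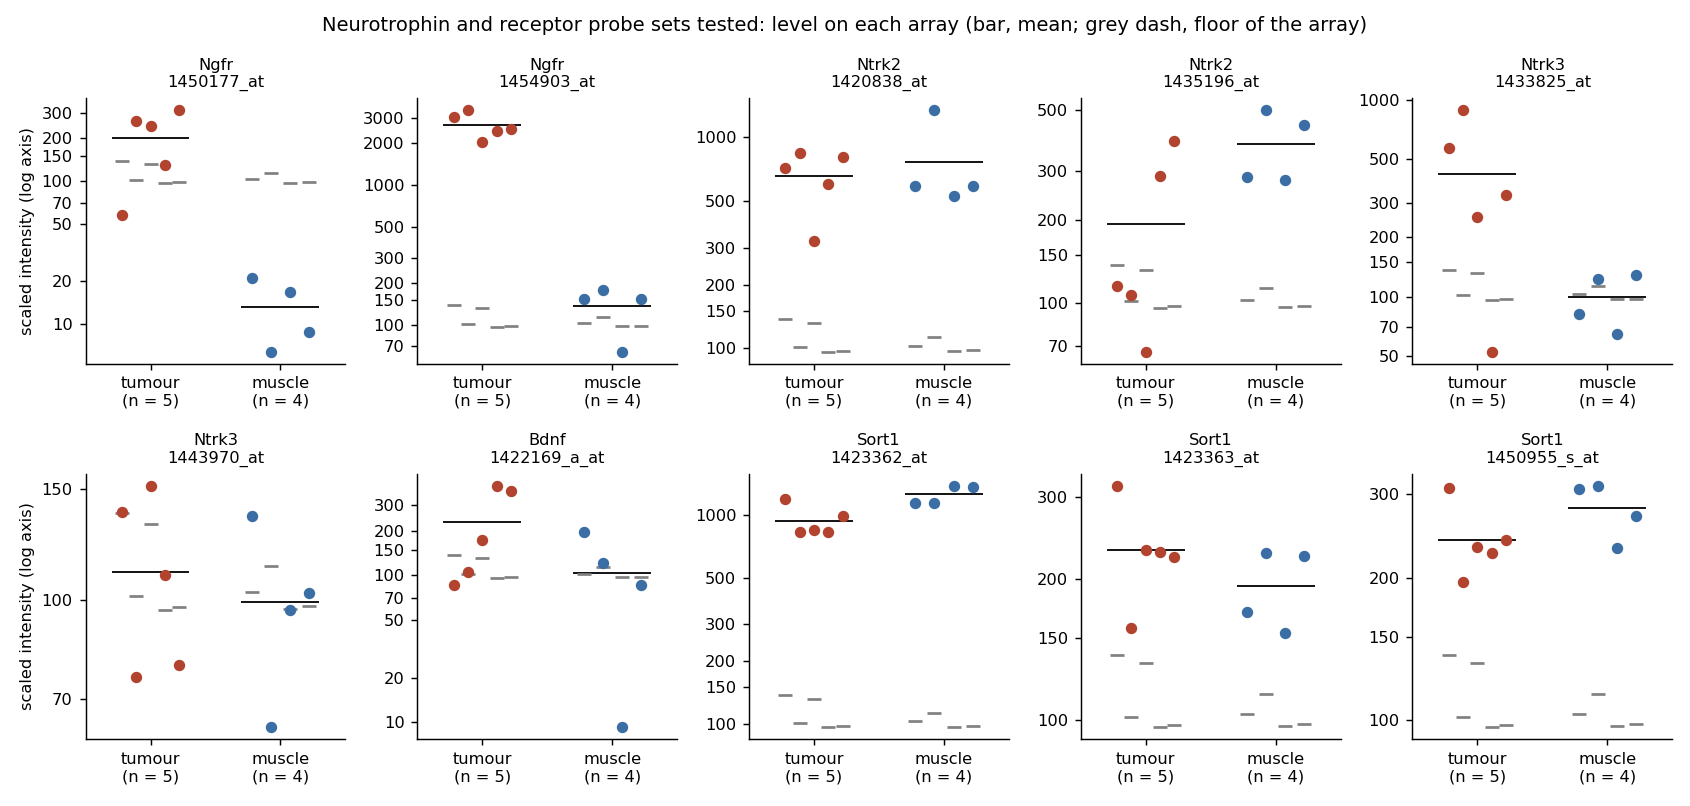
Scaled MAS5 intensity of the 10 tested member probe sets on all 9 arrays, on logarithmic axes with a separate range in each panel; points are arrays, black bars are group means and each grey dash is the floor of the array at its place. For Ngfr 1454903_at the tumours lie at 2042 to 3450.5 and the muscles at 64 to 177, while the groups overlap for every Ntrk2, Ntrk3, Bdnf and Sort1 probe set shown.

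Ngfr marks several cell types, and the marker lists of those cells moved unequally beside it. The summed level of 11 Schwann cell and peripheral glia genes was 6223 to 12579 in tumours and 5886 to 8334 in muscles. Of 10 of them tested, 2 had a probe set called higher (Egr2 and Cnp) and 3 one called lower (Mbp, Mal and Cdh19), where 32.2% of all genes tested had one called higher and 19.8% one called lower. A sum leans on its brightest genes. Over the list's 20 tested probe sets the median log2 fold change was -0.73. Of these probe sets, 2 were called higher and 7 lower, against 25.7% and 16.5% of all probe sets tested. Cdh19 and Foxd3 were below the floor in all 5 tumours. Cdh19 passed the filter only through the muscles, so its call supports nothing. Sox10 and S100b were not called. The summed level of 11 neuronal genes was 2380 to 7574 in tumours and 701 to 1230 in muscles. Of 3 of them tested, 2 were called higher, Stmn2 and Prph. Stmn2, a neuronal tubulin-binding protein, had log2 fold changes of 1.21 and 2.16. Prph, the intermediate filament peripherin, was below the floor in all muscles and at least 12.3-fold higher in tumours. It passed the filter only through the tumours, so its call supports nothing. Nefl, Nefm, Nefh, Rbfox3 and Isl1 were below the floor in all tumours. The 5 muscle precursor genes summed to 575 to 2814 in tumours and 1448 to 2134 in muscles. Of these, Pax3 and Pax7, transcription factors of muscle stem cells, were called higher (log2 fold changes 2.15 and 1.11), and Myf5, Myod1 and Cdh15 were called lower. Myf5, whose locus the driver is named after, was below the floor in all tumours and was at least 2.78-fold lower. It passed the filter only through the muscles, so its call supports nothing. The part of these cells in the Ngfr result was not tested.

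No probe set of the TRK receptors was called between tumours and muscles. Ntrk2 encodes TrkB, the receptor of BDNF, and occurs as a full-length kinase and as truncated forms that lack it. Ntrk2 probe set 1420838_at read 716, 846, 323, 601 and 804 in tumours 1 to 5, and 587, 1349, 525 and 589 in muscles 1 to 4. The groups overlapped: tumour 3 was lowest and muscle 2 highest. The log2 fold change was -0.17 (95% interval -0.93 to 0.59), with an adjusted p of 0.729 by limma. That interval leaves room for a change of either sign.

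A second Ntrk2 probe set varied with the label of the tumour. Probe set 1435196_at read 288 and 386 in the tumours labelled SSM (4 and 5), 116, 107 and 66.8 in those labelled CC (1 to 3), and 286, 500, 279 and 440 in the muscles. The SSM tumours lay within the range of the muscles or below its top, and the CC tumours lay below every muscle. Tumours 1 and 3 were below the floors of their arrays, and tumour 2 was just above its floor of 101.5. The CC values of this probe set are therefore near background. Over all 5 tumours the log2 fold change was -1.12 (95% interval -2.12 to -0.12), with an adjusted p of 0.067 by limma. Without tumour 4 it was -1.32 (adjusted p 0.0416) and without tumour 5 it was -1.42 (adjusted p 0.0173), both past the threshold. Without muscle 2 it was -0.97 and without muscle 4 it was -1.03, with adjusted p-values of 0.154 and 0.149 by limma. The other 2 Ntrk2 probe sets were not tested: 1420837_at was below the floor on every array, and 1446712_at reached it only in tumour 2 among the tumours and only in muscle 4 among the muscles.

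Ntrk3 encodes TrkC, the receptor of neurotrophin-3. Probe set 1433825_at read 567, 890, 254, 52.5 and 329 in tumours 1 to 5, against 81.7, 123, 64.9 and 128 in muscles 1 to 4. In 4 tumours it was above every muscle, and in tumour 4 it was below every muscle. Tumour 4 and muscles 1 and 3 were below the floors of their arrays, so their order carries little. The mean was 418 ± 321 in tumours (SD, n = 5) and 99.4 ± 30.9 in muscles (SD, n = 4), and the log2 fold change of 1.51 (SE 0.62, 95% interval 0.15 to 2.87) had an adjusted p of 0.0694 by limma. The call turned on tumour 4, since without it the log2 fold change was 2.07 with an adjusted p of 0.00234. Without muscle 3 the log2 fold change was 1.36 with an adjusted p of 0.157 by limma. The other tested Ntrk3 probe set, 1443970_at, overlapped between groups at 75.8 to 152 in tumours and 63.1 to 136 in muscles, and its log2 fold change was 0.13 (adjusted p 0.791 by limma). The other 5 Ntrk3 probe sets stayed under the filter, and 1425070_at, 1426003_at and 1455917_at among them were below the floor on every array.

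Bdnf encodes brain-derived neurotrophic factor, the ligand of TrkB. Probe set 1422169_a_at read 86.0, 106, 174, 407 and 378 in tumours 1 to 5, and 198, 122, 9.26 and 86.4 in muscles 1 to 4. Tumours 4 and 5 were above every muscle, while tumours 1 to 3 lay among the muscles. The log2 fold change of 1.16 (95% interval -0.26 to 2.57) had an adjusted p of 0.172 by limma. It was 0.53 without muscle 3, the lowest array. Its partner probe set 1422168_a_at reached the floor in tumours 4 and 5 and in muscle 2, ran from 72.2 to 230 in tumours and from 15.1 to 259 in muscles, and was not tested.

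Sort1 encodes sortilin, a sorting receptor that binds pro-neurotrophins together with p75 and carries many other cargoes. Probe set 1423362_at read 1185, 828, 846, 825 and 980 in tumours 1 to 5, and 1141, 1132, 1375 and 1352 in muscles 1 to 4. Tumours 2 to 5 were below every muscle, and tumour 1 lay within the range of the muscles. The means were 933 ± 155 in tumours (SD, n = 5) and 1249.9 ± 131 in muscles (SD, n = 4), a log2 fold change of -0.42 (95% interval -0.84 to -0.01) with an adjusted p of 0.0902 by limma. Without tumour 1 it was -0.51 with an adjusted p of 0.0288. Without muscle 3 it was -0.38 and without muscle 4 it was -0.39, with adjusted p-values of 0.208 and 0.201 by limma. The other Sort1 probe sets had log2 fold changes of 0.23 for 1423363_at (adjusted p 0.514) and -0.21 for 1450955_s_at (adjusted p 0.473), so the 3 probe sets did not share a sign.

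**Figure D2:**
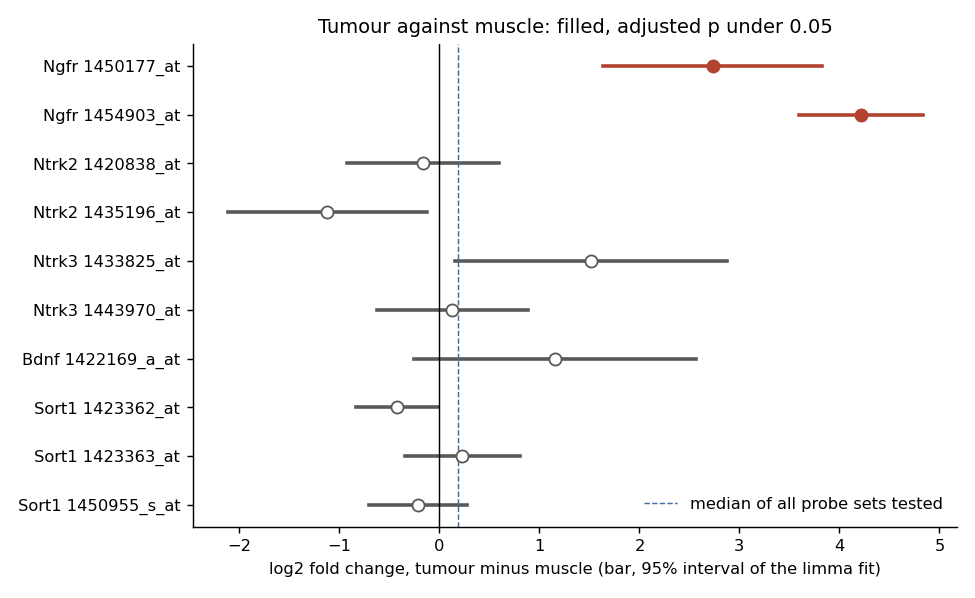
Log2 fold change, tumours minus muscles, of the 10 member probe sets tested, with 95% intervals from limma; the solid vertical line marks no difference and the dashed one the median of all probe sets tested, 0.18. Ngfr 1454903_at stands at 4.21, and the 8 probe sets not called lie between -1.12 and 1.51. The fitted 2.73 of Ngfr 1450177_at is drawn filled, but its muscles are all below the floor and it passed the filter through tumours only.

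The tumours were then set apart by label, 2 labelled SSM and 3 labelled CC, in a fit with muscle as the third group that was chosen after the data had been seen. Both CC17 tumours, which may come from 1 animal, were entered as separate samples. Over all probe sets, 1186 of 17433 (6.8%) were called between the SSM and the CC tumours. Of the 10 member probe sets, Ntrk2 1435196_at was the 1 called. Its mean log2 level was 8.45 in SSM tumours and 6.78 in CC tumours. The difference was 1.67 (95% interval 0.84 to 2.49) with an adjusted p of 0.0261 by limma. Its CC values were near the floor, and those of tumours 1 and 3 were below it. The other tested Ntrk2 probe set, 1420838_at, was above the floor on every array and was not called by label. It averaged 9.47 in SSM tumours and 9.22 in CC tumours, a difference of 0.25 (95% interval -0.78 to 1.28, adjusted p 0.785 by limma). Bdnf 1422169_a_at averaged 8.67 in SSM tumours and 7.06 in CC tumours on that scale, a difference of 1.62 (95% interval -0.03 to 3.26, adjusted p 0.213 by limma). Ntrk3 1433825_at averaged 7.26 in SSM tumours and 9.03 in CC tumours, a difference of -1.77 (95% interval -3.24 to -0.29, adjusted p 0.137 by limma). Ngfr 1454903_at averaged 11.29 in SSM tumours and 11.45 in CC tumours, a difference of -0.16 with a 95% interval of -0.996 to 0.679.

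The summed levels of some marker lists did not overlap between those labels, which carries little with 2 tumours against 3. The summed level of the Schwann cell list was 12579 and 10543 in the SSM tumours and 6223 to 8188 in the CC tumours. The fibroblast list summed to 107927 and 70573 in the SSM tumours and to 27310 to 40980 in the CC tumours. The macrophage list summed to 11812 and 14878 against 6134 to 11771, apart only by a small gap. Lower in the SSM tumours were the muscle precursor list, at 575 and 1030 against 1531 to 2814, and, by a small gap, the neuronal list, at 2380 and 2916 against 2998 to 7574. The other marker lists overlapped between the labels. The 3' to 5' Actb ratio did not separate the labels, at 4.54 and 2.04 in the SSM tumours and 12.7, 2.90 and 1.99 in the CC tumours. The part of these cells in the differences by label was not tested.

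**Figure D3:**
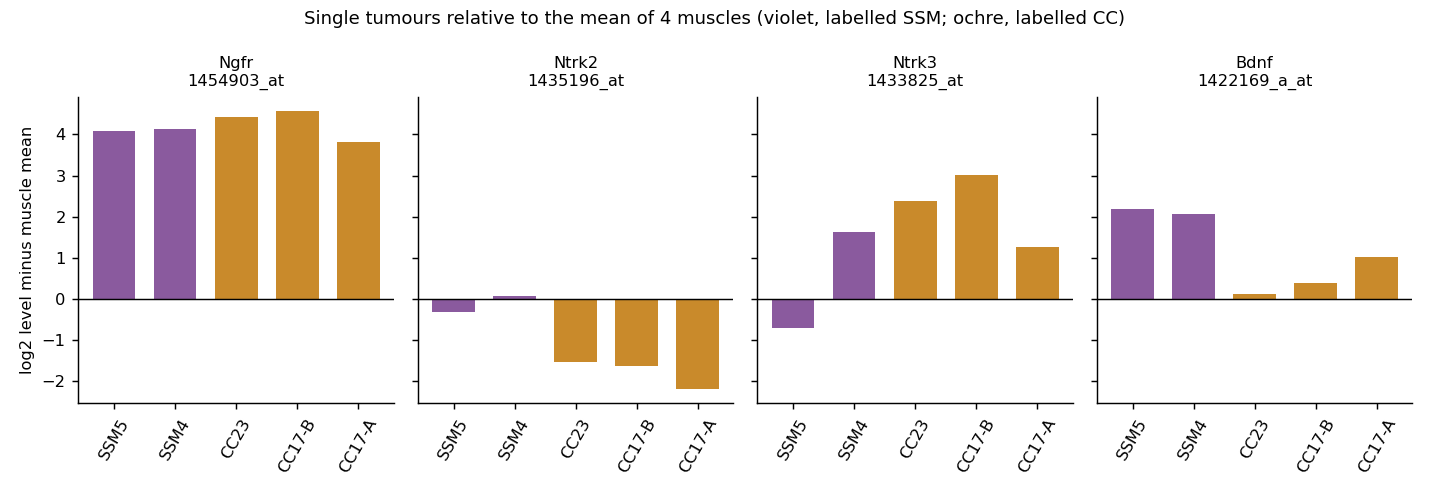
Bars give the log2 level of each tumour minus the mean of the 4 muscles, for the probe set of Ngfr, Ntrk2, Ntrk3 and Bdnf with the largest fold change in size; SSM tumours are violet, CC tumours are ochre and 0 is the muscle mean. Ngfr 1454903_at stands at 3.83 to 4.58 in all 5 tumours, whereas Ntrk2 1435196_at stands at -0.32 and 0.08 in SSM tumours and at -2.20 to -1.53 in CC tumours.

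Other genes of the pathway were counted from lists made for it. The lists were made with earlier results of these data known, so their counts are a description and no independent support. A gene was counted as higher or lower if at least 1 of its probe sets was called so. Over all 10661 genes tested, 32.2% had a probe set called higher and 19.8% one called lower. In the list of partners and effectors of p75, which also holds its relative Tnfrsf19, 6 of 11 genes tested were called higher. In the same list 1 was called lower and 4 were not called. The genes with the largest changes were Tnfrsf19, Bex3, Maged1 and Lingo1. The median log2 fold change over the list's 23 probe sets was 0.36. With probe sets ending in plain _at alone, where fewer were tested, 3 genes were called higher.

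Tnfrsf19 encodes TROY, a receptor related to p75 that can take its place in the Nogo receptor complex. Its probe set 1448147_at averaged 13998 ± 8861 in tumours (SD, n = 5) and 356 ± 170 in muscles (SD, n = 4), a log2 fold change of 5.12 with an adjusted p of 1.3e-05 by limma, and its other 2 probe sets were called higher as well. Bex3 encodes NADE, an adaptor that binds the death domain of p75, and averaged 4045 ± 955 in tumours and 413 ± 84.1 in muscles (log2 fold change 3.24). Maged1 encodes NRAGE, another adaptor bound by p75, and averaged 3139 ± 981 in tumours and 544 ± 363 in muscles (log2 fold change 2.62). Lingo1 encodes a co-receptor of p75 in the Nogo receptor complex, and its probe sets rose by 1.88 and 1.30 on the log2 scale. Sqstm1, a scaffold of the pathway from p75 to NF-kappaB and an autophagy receptor, was the 1 gene called lower and is named after its values were seen, at 2571 ± 1195 in tumours and 8137 ± 1187 in muscles (log2 fold change -1.77).

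Most adaptors and effectors of the TRK receptors were not called. Of 20 genes tested, 4 were called higher, 3 were called lower, 1 had probe sets called in either direction and 12 were not called, with a median of -0.01 over 39 probe sets. Counting that 1 gene, 5 of 20 had a probe set called higher and 4 of 20 one called lower, which is no more than about the shares over all genes of 32.2% and 19.8%. Without tumour 3, 4 or 5 or without muscle 1 or 3, 3 genes had one called higher. Kidins220, a scaffold bound by TRK receptors and p75, was that gene: probe set 1433852_at was higher (log2 fold change 1.59), whereas 1455762_at and 1436607_a_at were lower (log2 fold changes -2.92 and -1.31). Rapgef1, an exchange factor for the small GTPase Rap, averaged 830 ± 252 in tumours and 1777.5 ± 367 in muscles at probe set 1427006_at (log2 fold change -1.10). Sos2, an exchange factor for Ras, averaged 996 ± 218 in tumours and 3214 ± 438 in muscles (log2 fold change -1.70). For Pik3r1, a regulatory subunit of phosphoinositide 3-kinase, 1 of 4 probe sets was called lower (log2 fold change -2.23 at 1451737_at), a call lost without muscle 2, and the other 3 were not called.

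Among the enzymes that process neurotrophins or cut their receptors, 3 of 8 genes tested were called higher and none was called lower. The shares over all genes tested were 32.2% and 19.8%, so the count of higher calls is about the share over all genes. The median was 0.64 over 10 probe sets. Pcsk5, a proprotein convertase, had log2 fold changes of 1.93 and 1.05 at 2 probe sets; the call at 1.93 was lost without muscle 1, 3 or 4 (adjusted p up to 0.0703 by limma). Plat, the tissue plasminogen activator whose product plasmin cleaves proBDNF, had a log2 fold change of 0.72, and Adam10, a protease that sheds membrane proteins, had 0.70 at 1 probe set and 0.59 at another that was not called. The call of Plat was lost without tumour 2, 4 or 5 and without muscle 1, 3 or 4, with an adjusted p of up to 0.197 by limma over its alternatives, and both calls were lost in the values as deposited and with median centring. Of 4 other neurotrophin receptor genes tested, Nradd, a death-domain relative of p75, was called higher, at 363 ± 32.8 in tumours and 128 ± 74.3 in muscles (log2 fold change 1.58). Sorl1 and the rest of that list were not called, where 32.2% of all genes tested had a probe set called higher.

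The genes with the profiles most like each member's were found over all 9 arrays by the root-mean-square difference of log2 levels after each profile was centred on its own mean. For Ngfr 1454903_at these were Cadm1 (0.31), Ccnd2 (0.34) and Onecut2 (0.38), against a standard deviation of 2.26 of Ngfr over the arrays. Cadm1 encodes an adhesion molecule and averaged 6099 ± 1600 in tumours and 260 ± 36.9 in muscles. Ccnd2 encodes cyclin D2 and averaged 12978 ± 5201 in tumours and 547 ± 250.5 in muscles. For Ntrk2 1420838_at the nearest were Eln, Mccc2 and Dleu2, for Ntrk3 1433825_at they were Col13a1, Prdm16 and Rbm45, and for Bdnf 1422169_a_at they were Mtpn, Nudt21 and Ttc39b. For Sort1 1423362_at they were Oxld1, Mrps26 and Mrpl46, at 0.11 to 0.13. These likenesses rest on 9 arrays from 2 tissues and carry no test.

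Ss18, whose human counterpart is the SYT part of the fusion, was measured by 3 probe sets that do not report the fusion as such. Its log2 fold changes were 1.17 (adjusted p 0.00065 by limma), 1.53 (adjusted p 0.018) and 0.45 (adjusted p 0.586). The summed level of 10 muscle fibre genes was 399 to 124545 in tumours and 431412 to 594568 in muscles, so the tumours differed among themselves in muscle fibre RNA. The macrophage list summed to 6134 to 14878 in tumours and 4276 to 4920 in muscles.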

How the data were processed

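Total RNA of 5 tumours and 4 skeletal muscles was hybridised to Affymetrix arrays. The deposited values are probe set intensities on a linear scale, made by the authors with MAS5 per the submitters' processing notes; version and scaling target are not given in the sources used here. No detection calls were held. The table covered 30508 probe sets. Of these, 25581 had 1 gene symbol, 496 had several, 4424 had none and 7 were controls. Each array was scaled to a common 2% trimmed mean, and levels were log2(value + 16). Probe sets at or above an array's floor, its 40th percentile, on at least 4 arrays were tested with the linear models of limma 3.58.1 (R 4.3.3; lmFit and trended eBayes). Tests were two-sided and p-values were adjusted by Benjamini and Hochberg's method. The fit was tested on simulated data. Precision is limited by how few arrays there are.

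The named genes were all 6 members, up to 4 genes of each pathway list with the largest called change, and the 3 nearest profiles of each member. The members and lists were chosen with earlier results of these data known. Sequences are from RefSeq, build GRCm38.p6. Scan batches were not given, and their part was not tested. Alternatives changed the scaling, pseudocount, filter, choice of probe sets, variance model and samples.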

Additional observations from a re-analysis of the deposited data

Results flagged for a closer look

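In 2 of 38 groups of member values, 1 array stood apart from the others of its group by Dixon's criterion, which chance meets in about 1 of 20 groups. Ngfr 1454903_at read 64 in muscle 3, below the floor of that array, where the other muscles read 152 to 177. Without muscle 3 the log2 fold change of Ngfr 1454903_at was 3.93. Ntrk2 1420838_at read 1349 in muscle 2, where the others read 525 to 589, and without muscle 2 its log2 fold change was 0.14 and not -0.17; neither was called.

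Ntrk2 1435196_at differed among the tumours by their label, by 1.67 on the log2 scale for SSM minus CC tumours (limma, adjusted p 0.0261), with the same muscles behind both. This rests on 2 SSM and 3 CC tumours and a split chosen after the data had been seen. Both CC17 tumours, which may come from 1 animal, were entered as separate samples. The CC values were near the floor, and those of tumours 1 and 3 were below it. The other tested Ntrk2 probe set, 1420838_at, differed by 0.25 (adjusted p 0.785 by limma) and was not called by label.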

How the results depend on the processing

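Ngfr 1454903_at was called higher under all 24 alternatives tried, with log2 fold changes of 3.81 to 4.85. Ngfr 1450177_at was tested under 17 alternatives. It fell under the filter without tumour 2, 3, 4 or 5, with the floor at the 50th percentile and in the CC tumours alone, and had no value of its own where each gene had 1 probe set or the mean of its probe sets. The scaling moved all probe sets: the median log2 fold change was 0.18 as reported, -0.05 with median centring and 0.82 with centring on ribosomal protein and proteasome genes, where 47.4% and 85.7% of calls were higher in tumours, against 60.8% as reported. The cause of the following changes was not tested. The number of probe sets called was 4583 with the mean of all probe sets of a gene, where fewer features were tested, and 5862 to 7823 with 1 array left out. Member probe sets called numbered 4 with median centring, 4 with quantile normalization, 5 with ribosomal centring, and 1 with the 50th percentile floor, with 1 probe set per gene and with the mean of probe sets, and 1 to 3 with 1 array left out. Those called higher numbered 5 with ribosomal centring, 1 under the same last 3 settings and 1 to 2 with 1 array left out. Those called lower numbered 2 with median centring, 2 with quantile normalization, 1 with array weights, 1 with CC tumours alone and 0 to 1 with 1 array left out. Pathway genes called higher numbered 10 with median centring and 32 with ribosomal centring, against 16, and 12 to 17 with 1 array left out; those called lower numbered 3 with 1 probe set per gene, against 6, and 5 to 7 with 1 array left out.

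Values not called turned sign as follows. Ntrk2 1420838_at was 0.47 with ribosomal centring, 0.066 with array weights, and -0.31 to 0.14 with 1 array left out (0.061 without tumour 3, 0.14 without muscle 2). Ntrk3 1443970_at was -0.10 with median centring, -0.081 with array weights, and -0.040 (without muscle 2) to 0.27 with 1 array left out. With ribosomal centring Sort1 1423362_at was 0.22 and 1450955_s_at 0.43, and with median centring 1423363_at was -0.0033. Called under some settings, among them those in brackets, were Sort1 1423363_at (0.87 with ribosomal centring), Bdnf 1422169_a_at (1.80 with ribosomal centring), Ntrk3 1433825_at (2.15 with ribosomal centring, 2.22 with CC tumours alone), Ntrk2 1435196_at (-1.35 with median centring, -1.79 with CC tumours alone) and Sort1 1423362_at (-0.66 with median centring). Of the 14 pathway genes named by rule, 8 were called under every alternative in which they were tested and 6 were not under at least 1, and each kept its sign; for Rapgef1 and Gfra2 this was a probe set that passed the filter only through the muscles, which supports nothing. The CC tumours alone were chosen after the data had been seen. The random block for the CC17 tumours could not be fitted and was not run. No paired analysis was possible because the labels give tumours and muscles no shared numbers. Values near the floor carry little signal over background.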

Other observations

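Receptors and ligands of the GDNF family, another group of neuronal survival factors, were counted beside the neurotrophins. Of 6 genes tested, 1 was called higher, 1 lower and 4 were not called, where 32.2% of all genes tested had a probe set called higher and 19.8% one called lower. The gene called higher was Gfra1, the co-receptor of GDNF, and the gene called lower was Gfra2, the co-receptor of neurturin. Gfra1 averaged 557 ± 307 in tumours (SD, n = 5) and 99.1 ± 54.5 in muscles (SD, n = 4), a log2 fold change of 2.17 with an adjusted p of 0.0175 by limma; the call was lost without muscle 4. Gfra2 1423007_a_at averaged 41.3 ± 32.8 in tumours, all below the floor, and 126 ± 24.6 in muscles (at least 1.11-fold lower). It passed the filter only through the muscles, where it is high, so its call supports nothing, and the other tested probe set of Gfra2 was not called (log2 fold change -0.44, adjusted p 0.309 by limma). The median over the list's 7 probe sets was -0.39.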
